A study of Mus musculus with 16 samples.

Results

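The 7 genes described here, Lgr5, Prom1, Tnfrsf19, Cdca7, Aqp4, Msi1 and Bmi1, are in use as markers of intestinal stem cells. A probe set, which is a group of short oligonucleotides that reads out a transcript, was taken as theirs where its only gene symbol in the platform annotation was one of these names. This gave 9 of the 12488 probe sets on the array, and 7 of the 8251 genes that a probe set represents. Prom1 and Aqp4 had 2 probe sets each, and all 9 were bright enough to be tested.

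Intestinal stem cells sit at the base of the crypts, divide throughout life and replace the whole epithelium, and Wnt signalling keeps them in that state. In the mouse, Lgr5, a receptor for R-spondins, marks the dividing cells at the crypt base, and Prom1, Tnfrsf19, Cdca7, Aqp4 and Msi1 have been listed among the transcripts of those cells. Bmi1, a subunit of the Polycomb repressive complex that compacts chromatin, has been described as a marker of a slower reserve population higher in the crypt. None of these genes is restricted to stem cells.

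The signals came from mouse ileum epithelium that had been taken from sections by laser capture, amplified in 2 rounds and hybridised to 16 oligonucleotide arrays. There were 5 arrays labelled carcinoma (a malignant tumour), 5 labelled adenoma (a benign tumour) and 6 labelled WT. Genotype, strain, age, the alleles or agents behind the tumours, how regions were chosen and how many animals were used are not stated in the labels. The arrays are not tied to animals, so the p-values measure only the spread between captured samples and are too small if arrays of a group shared an animal. The captures are bulk samples, in which fewer cells of a type and less RNA per cell cannot be told apart.

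Signals under 46.9, the 25th percentile over the 16 arrays, were raised to that floor before log2 was taken. No detection calls were used, so a signal at the floor is read only as a bound, and a probe set's signal is compared between arrays and not with another probe set's. All 12 defining epithelial markers were above the floor on every carcinoma array, and 11 of them on every adenoma array and on every WT array. Control measures moved with the groups. Spiked-in control transcripts had a mean log2 signal of 12.23 ± 0.50 in carcinoma, 12.24 ± 0.82 in adenoma and 13.74 ± 1.0 in WT (SD), and WT 1, 2, 4 and 5 lay above every tumour array. The log2 ratio of 3' to 5' Gapdh signal, a measure of RNA integrity and amplification, was 5.70 ± 0.58 in carcinoma, 5.82 ± 0.24 in adenoma and 4.52 ± 0.39 in WT (SD). The same ratio for beta-actin ran the other way, at 6.04 ± 0.44 in carcinoma, 5.87 ± 0.30 in adenoma and 6.25 ± 0.17 in WT (SD), and its differences from WT did not pass (two-sided exact permutation tests, adjusted p = 0.445 in carcinoma and 0.0649 in adenoma). The spike-in signal and the Gapdh ratio differed between each tumour group and WT (two-sided exact permutation tests, adjusted p = 0.0487 for the spike-ins and 0.00649 for Gapdh, in each comparison). The Gapdh ratio ran from 5.52 to 6.12 in adenoma and from 4.09 to 5.02 in WT, without overlap, and from 4.95 to 6.45 in carcinoma. In a fit with that ratio as a covariate, ratio and group can hardly be told apart, so a call lost there decides nothing. For the 7 genes, fits with the spike-in signal or the Gapdh ratio as a covariate are given below under a rule. They are given where they ended a call, turned a direction or moved a gene's fold difference by more than 1.5 times. For genes of the other lists these fits were not examined one by one, so their calls carry no such check.

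Against WT, Prom1 and Tnfrsf19 were higher in both tumour groups, Cdca7 was higher in carcinoma and Aqp4 was lower in adenoma. Lgr5, Msi1 and Bmi1 did not pass the test in any comparison, and none of the 7 genes passed between carcinoma and adenoma. In carcinoma, 3 of the 7 genes were higher and 0 lower at a limma adjusted p of 0.05, beside 4.16% of the 7455 genes tested that were higher and 4.9% that were lower. In adenoma, 2 were higher and 1 lower, beside 4.02% higher and 4.25% lower over all genes tested. The median log2 fold change of the 7 genes was 1.15 in carcinoma and 0.92 in adenoma, while that of all genes tested was -0.14 in both. For 2 of the 7 genes, Prom1 and Tnfrsf19, every array of a tumour group was above every WT array, beside 3.13% of the genes tested in carcinoma and 3.06% in adenoma. The counts and medians are descriptions, since the list itself was not tested. Tnfrsf19 enters them with every WT array below the floor, so its call rests on floored WT values. The 2 comparisons share the same WT arrays.

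**Figure D1:**
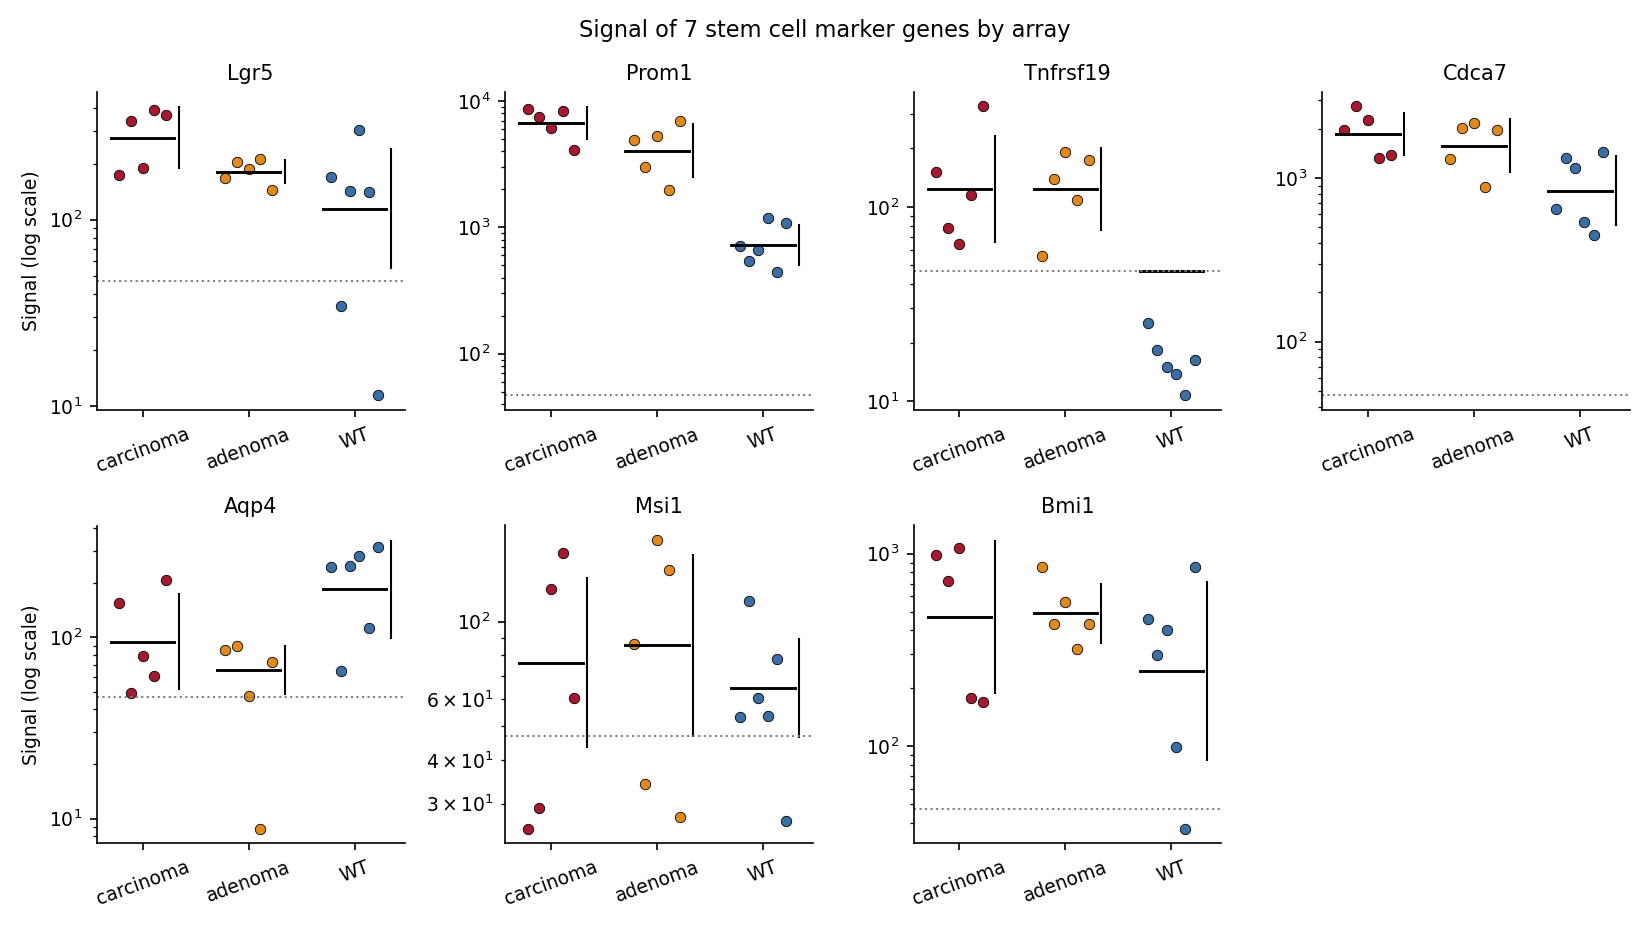
Signal of each gene's brightest probe set (log scale) on every array, with carcinoma, adenoma and WT from left to right. Points are arrays, horizontal bars the means and vertical bars ± 1 SD of the floored log2 values, and the dotted line is the floor of 46.9. Prom1 and Tnfrsf19 show no overlap between tumour arrays and WT arrays, and the other 5 genes do.

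Lgr5, the R-spondin receptor, had signals of 174.5, 340.7, 188.5, 390.3 and 364.4 on carcinoma arrays 1 to 5, and of 166.9, 203.0, 187.9, 212.4 and 143.9 on adenoma arrays 1 to 5. On the 6 WT arrays its lowest, median and highest signals were 11.4, 141 and 302.6. Carcinoma 2, 4 and 5 were above every adenoma array and every WT array, but the groups overlapped, and WT 2 and WT 6 were below the floor. The log2 levels averaged 8.11 ± 0.56 in carcinoma and 7.50 ± 0.23 in adenoma (SD, n = 5 each), against 6.84 ± 1.08 in WT (SD, n = 6). The difference from WT was 1.27 ± 0.42 (SE) on the log2 scale in carcinoma, or 2.41-fold, and did not pass (limma adjusted p = 0.0669). In adenoma it was 0.66 ± 0.42, with a 95% interval from -0.22 to 1.54 (limma adjusted p = 0.365).

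Lgr5 in carcinoma, not called in the main fit, passed in 6 of 31 alternative fits and missed the threshold in 25. With quantile normalization the difference was 1.49 (limma adjusted p = 0.0155), with array medians aligned 1.54 (0.0122), and without WT 4, the brightest WT array for this gene, 1.55 (0.0182). It also passed with array weights (1.30, limma adjusted p = 0.0364) and with only WT 3 and WT 6 kept in WT (1.75, 0.0474).

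The tested genes of Wnt reception at the cell surface showed no call. They were Rspo2, Lrp6 and Frizzled receptors, and the other genes of that list were not tested. Of 20 listed Wnt receptors, R-spondins and partners, 9 were tested, and 0 passed in carcinoma (median log2 fold change -0.18) and 0 in adenoma (median -0.35). Among 15 other crypt stem cell genes tested, 2 were higher and 1 lower in carcinoma, and 1 was higher and 1 lower in adenoma. Their median log2 fold change was 0.24 in carcinoma and 0.09 in adenoma. Cd24a, a surface glycoprotein used to sort crypt cells, had log2 fold changes of 2.48 ± 0.29 in carcinoma (limma adjusted p = 2.1e-05) and 2.41 ± 0.29 in adenoma (3.03e-05). Alcam, an adhesion molecule, was higher by 1.10 ± 0.33 in carcinoma (limma adjusted p = 0.0459). Nr5a2, a nuclear receptor that acts in crypts, was lower, with log2 fold changes of -1.93 ± 0.24 in carcinoma (limma adjusted p = 3.69e-05) and -1.61 ± 0.24 in adenoma (0.000276).

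Tnfrsf19, also called Troy, is an orphan receptor of the TNF receptor family and a Wnt target in crypt base cells of the mouse. Its signals were 151.7, 77.7, 64.1, 114.4 and 328.7 on carcinoma arrays 1 to 5, and 55.8, 139.1, 192.4, 109.0 and 174.8 on adenoma arrays 1 to 5. On WT arrays the lowest, median and highest signals were 10.7, 15.7 and 25.3. All 10 tumour arrays were above the floor and all 6 WT arrays below it, so no tumour array overlapped with WT. The log2 level averaged 6.95 ± 0.93 in carcinoma and 6.95 ± 0.71 in adenoma (SD, n = 5 each), against the floor of 5.55 in WT. Tnfrsf19 was at least 2.63-fold higher in carcinoma (log2 1.39 ± 0.37, limma adjusted p = 0.0242) and at least 2.63-fold higher in adenoma (log2 1.39 ± 0.37, limma adjusted p = 0.0261). The bound is measured from the floor of 46.9, which stands in for the unmeasured WT level. All WT values were set equal to that floor, so WT added no spread to these SEs and p-values, which are therefore only nominal. The gene also passed the brightness filter through its tumour arrays alone.

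The size of this bound and its call changed with the floor and in fits with a control measure as a covariate. The Gapdh ratio can hardly be told apart from the group, so its fit cannot settle the call. With the floor at the 10th percentile the log2 difference was 2.80 in both tumour groups, and at the 40th percentile 0.40 in carcinoma (limma adjusted p = 0.353) and 0.34 in adenoma (0.439). With the Gapdh ratio as a covariate it was 0.63 in carcinoma (limma adjusted p = 0.723) and 0.56 in adenoma (0.811). With spike-in signal as the covariate it was 1.48 in each and missed the threshold (limma adjusted p = 0.101 in carcinoma and 0.0931 in adenoma). With only WT 3 and WT 6 kept in WT it was 1.39 in each (limma adjusted p = 0.277 in carcinoma and 0.279 in adenoma). The carcinoma call was lost without carcinoma 1 (1.32, limma adjusted p = 0.0622) or carcinoma 5 (1.04, 0.061), and also with array weights (1.09, 0.0903). The adenoma call was lost without adenoma 2 (1.35, limma adjusted p = 0.0626), adenoma 3 (1.23, 0.0781) or adenoma 5 (1.27, 0.0799).

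Tnfrsf19 is the member that was below the floor on every WT array and above it on every tumour array, and the letters before its transcript starts are shown for that reason. RefSeq promoter windows of build GRCm38.p6 were found for 4 of the 7 genes (Bmi1, Cdca7, Prom1 and Tnfrsf19), 6 windows in all, and Tnfrsf19 had 2 of them, on the minus strand. The letters CTTTGA and CTTTGT, which TCF/LEF factors at the end of the Wnt pathway recognise and which differ only in their last base, were searched on both strands in the 250 bases before each start. Of 32851 windows of the same length, 13.8% held CTTTGA, 16.5% held CTTTGT and 27.6% held either. Of the 6 member windows 1 did, which is a description of letters and no evidence of binding. Its match, TCAAAG, is CTTTGA read on the opposite strand, begins at base -201 from the start site and is in capitals.
Tnfrsf19, chr14:61046856-61047105, minus strand: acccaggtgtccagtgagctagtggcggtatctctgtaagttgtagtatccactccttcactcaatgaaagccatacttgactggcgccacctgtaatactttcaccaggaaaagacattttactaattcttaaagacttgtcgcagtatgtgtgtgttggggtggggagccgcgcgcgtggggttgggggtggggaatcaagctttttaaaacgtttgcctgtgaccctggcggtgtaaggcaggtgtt
Tnfrsf19, chr14:61037988-61038237, minus strand: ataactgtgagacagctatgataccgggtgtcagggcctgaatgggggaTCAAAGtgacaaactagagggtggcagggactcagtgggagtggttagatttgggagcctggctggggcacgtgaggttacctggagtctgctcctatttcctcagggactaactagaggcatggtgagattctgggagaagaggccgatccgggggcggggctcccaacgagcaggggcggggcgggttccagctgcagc

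Relatives of Tnfrsf19 rose in both tumour groups in part. Of 12 other TNF receptor family genes tested, 3 were higher and 0 lower in carcinoma, and 3 were higher and 0 lower in adenoma. The decoy receptor Tnfrsf11b (osteoprotegerin) had log2 fold changes of 2.59 ± 0.51 in carcinoma (limma adjusted p = 0.00263) and 2.90 ± 0.51 in adenoma (0.00115). Tnfrsf21, a death receptor, was higher by 1.64 ± 0.39 in carcinoma (limma adjusted p = 0.0111) and by 1.33 ± 0.39 in adenoma (0.0422). Tnfrsf1b, the second TNF receptor, was higher by 1.36 ± 0.27 in carcinoma (limma adjusted p = 0.00263) and by 0.91 ± 0.27 in adenoma (0.0426). The median over the 12 was 0.23 in carcinoma and 0.16 in adenoma.

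Prom1 (CD133), a cholesterol-binding glycoprotein of membrane protrusions, was higher in both tumour groups on each of its probe sets. Its brighter probe set had signals of 8612.5, 7486.8, 6080.8, 8268.0 and 4107.3 on carcinoma arrays 1 to 5, and of 4940.5, 3023.9, 5286.5, 1983.8 and 6892.2 on adenoma arrays 1 to 5. The lowest, median and highest WT signals were 444.3, 685.7 and 1179.4. Every tumour array was above every WT array, and the lowest of them was adenoma 4, while carcinoma and adenoma overlapped. On the log2 scale Prom1 averaged 12.71 ± 0.44 in carcinoma and 11.98 ± 0.72 in adenoma (SD, n = 5 each), against 9.50 ± 0.55 in WT (SD, n = 6). Prom1 was 9.23-fold higher in carcinoma (log2 3.21 ± 0.34, limma adjusted p = 5.54e-06) and 5.59-fold higher in adenoma (log2 2.48 ± 0.34, limma adjusted p = 0.000124).

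The dimmer Prom1 probe set separated the groups in the same way. Its signals were 3184.7, 4812.1, 3508.9, 6916.6 and 2597.7 on carcinoma arrays 1 to 5, and 3726.2, 1674.8, 2150.6, 1171.2 and 3785.4 on adenoma arrays 1 to 5, against a lowest, median and highest of 504.7, 702.8 and 860.4 on WT arrays. Again no tumour array overlapped with WT. It was 5.83-fold higher in carcinoma (log2 2.54 ± 0.34, limma adjusted p = 5.82e-05) and 3.34-fold higher in adenoma (log2 1.74 ± 0.34, limma adjusted p = 0.0026). Over all 9 probe sets of the list, 4 were higher and 0 lower in carcinoma, beside 3.67% higher and 5.01% lower of the 10563 probe sets tested. In adenoma 3 were higher and 1 lower, beside 3.53% higher and 4.24% lower. The higher counts take in both Prom1 probe sets, which read the same gene, and that of Tnfrsf19, whose WT values were all at the floor.

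**Figure D2:**
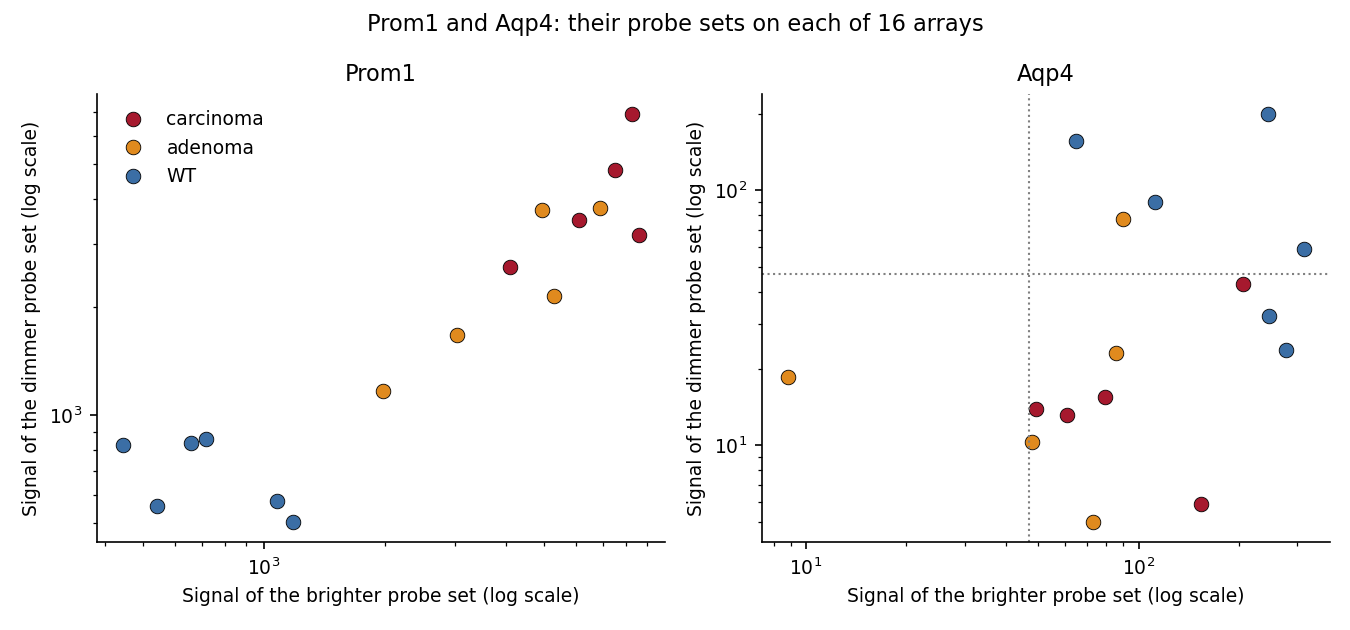
Signals of the 2 probe sets of Prom1 (left) and of Aqp4 (right) on each of the 16 arrays, both axes on log scales, with dotted lines at the floor of 46.9. For Prom1 all tumour arrays lie above all WT arrays on both axes, and for Aqp4 the groups overlap on both.

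Prom1 passed in both comparisons with WT under each of the 31 alternatives run. The log2 difference ranged over them from 2.50 to 3.53 in carcinoma (highest limma adjusted p = 0.00397) and from 1.78 to 2.78 in adenoma (highest 0.0426). The smallest difference in each came with the spike-in covariate. The dimmer probe set missed the threshold in adenoma with the spike-in covariate (1.51, limma adjusted p = 0.0552), with the Gapdh covariate (2.34, 0.0636) and with only WT 3 and WT 6 kept in WT (1.70, 0.0908).

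Enterocyte and goblet cell markers that passed were lower on the same tumour arrays. The summed signal of the 10 enterocyte markers ranged from 1785.1 to 5617.3 in carcinoma and from 2821.1 to 43041.5 in adenoma, against 11820.1 to 74106.1 in WT, with Mttp at the floor on every carcinoma array. Of the 10, 0 were higher and 4 lower in carcinoma, and 0 were higher and 3 lower in adenoma. The summed signal of 7 goblet cell markers ranged from 21707.8 to 67065.4 in carcinoma and from 34079.1 to 54784.1 in adenoma, against 98068.2 to 196771 in WT. Atoh1, at the floor on every tumour array, was not above it on every WT array either and was too dim to be tested. Of the 6 tested, 0 were higher and 4 lower in each tumour group. Of 9 tested markers of enteroendocrine cells, the hormone-secreting cells, 0 were higher and 4 lower in each tumour group, with median log2 fold changes of -0.93 in carcinoma and -1.10 in adenoma. Of 2 tested tuft cell markers, 1 was higher in each, the actin-binding protein Avil at 2.67 ± 0.52 in carcinoma and 2.95 ± 0.52 in adenoma (limma adjusted p = 0.00235 and 0.00114). The other had a negative log2 fold change in each and did not pass. Their summed signal overlapped with WT, at 534.3 to 1729.4 in carcinoma and 806.7 to 1231 in adenoma, against 337 to 1031.5 in WT.

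Paneth cells, the antimicrobial cells that sit between the stem cells, gave a mixed picture. Of 6 markers tested, 2 were higher and 1 lower in each tumour group, and the summed signal ranged from 17398.9 to 32406.3 in carcinoma and from 12644.3 to 28064.9 in adenoma, against 13503.3 to 34361.6 in WT. The matrix protease Mmp7 had log2 fold changes of 2.73 ± 0.39 in carcinoma and 2.46 ± 0.39 in adenoma, and the phospholipase Pla2g2a of 3.54 ± 0.47 and 3.13 ± 0.47. The lectin Reg3a had log2 fold changes of -5.36 ± 0.46 in carcinoma and -3.39 ± 0.46 in adenoma (limma adjusted p from 3.15e-07 to 0.000432 over these 3 genes). Among cells outside the epithelium, 2 of 8 fibroblast markers were higher in carcinoma and 0 in adenoma, and 0 of 8 macrophage markers passed in either. Of 11 markers of T, B and plasma cells, 1 was lower in carcinoma and 3 in adenoma. Of 7 smooth muscle markers, 0 were higher and 2 lower in carcinoma, and 1 was higher and 2 lower in adenoma, with medians of -1.12 and -1.08. Of 7 endothelial markers, 0 passed in carcinoma and 1 was higher in adenoma. The part of cell make-up in the Prom1, Tnfrsf19, Cdca7 and Aqp4 differences was not tested.

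Cdca7, a nuclear protein induced by Myc that takes part in chromatin remodelling during DNA replication, was higher in carcinoma. Its signals were 1978.0, 2747.4, 2260.1, 1322.4 and 1379.5 on carcinoma arrays 1 to 5, and 1311.4, 2028.6, 2168.7, 880.3 and 1960.2 on adenoma arrays 1 to 5. The lowest, median and highest WT signals were 452.0, 898.3 and 1438.0. In each tumour group 3 of 5 arrays were above every WT array, and the rest overlapped with WT. Cdca7 averaged 10.86 ± 0.46 on the log2 scale in carcinoma and 10.63 ± 0.55 in adenoma (SD, n = 5 each), against 9.71 ± 0.72 in WT (SD, n = 6). It was 2.22-fold higher in carcinoma (log2 1.15 ± 0.35, limma adjusted p = 0.0468). In adenoma the difference of 0.92 ± 0.35 did not pass (limma adjusted p = 0.123).

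The carcinoma call for Cdca7 was close to the threshold and was kept in 13 of 31 alternatives. Leaving out WT 1, 4 or 5 gave 1.08, 1.02 and 0.97 (limma adjusted p = 0.0856, 0.094 and 0.0883), and leaving out carcinoma 1, 2 or 3 gave 1.13, 1.01 and 1.08 (0.0924, 0.121 and 0.102). Leaving out adenoma 1, 2, 3 or 5 left the difference at 1.15 and also ended the call (limma adjusted p from 0.0543 to 0.0567). With the spike-in covariate the difference was 0.45 (limma adjusted p = 0.606), and with only WT 3 and WT 6 kept in WT 0.54 (0.661). With the Gapdh covariate it stayed at 1.12 but was not called (limma adjusted p = 0.468). In adenoma the spike-in covariate gave 0.23 (limma adjusted p = 0.81).

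Of 24 tested genes of the cell cycle and DNA replication, 1 was higher and 0 lower in carcinoma, and 0 passed in adenoma. Their median log2 fold change was 0.28 in carcinoma and 0.19 in adenoma. The one that passed was Pcna, the sliding clamp of DNA polymerase, at 1.11 ± 0.26 in carcinoma (limma adjusted p = 0.011).

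By the SD of floored log2 values, Bmi1 varied more between arrays than any other member within carcinoma and within WT, but not within adenoma. In WT the floor cut the spread of Lgr5, whose deposited signals ran from 11.4 to 302.6. The Bmi1 signals were 980.2, 721.9, 1073.0, 178.7 and 168.7 on carcinoma arrays 1 to 5, and 850.6, 429.9, 558.3, 320.3 and 428.8 on adenoma arrays 1 to 5. On WT arrays the lowest, median and highest signals were 37.1, 348 and 854.0. The WT arrays spanned 18.2-fold after the floor, and carcinoma 4 and 5 were below every adenoma array. The log2 averages were 8.88 ± 1.33 in carcinoma and 8.93 ± 0.53 in adenoma (SD, n = 5 each), against 7.93 ± 1.55 in WT (SD, n = 6). The difference from WT was 0.94 ± 0.66 in carcinoma, with a 95% interval from -0.43 to 2.32 (limma adjusted p = 0.401), and 1.0 ± 0.66 in adenoma, with an interval from -0.38 to 2.38 (limma adjusted p = 0.382).

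The direction of the Bmi1 difference followed which WT arrays were used. On WT 1, 2, 4 and 5, the arrays of high spike-in signal, Bmi1 read 458.3, 297.5, 98.4 and 37.1, and on WT 3 and WT 6 it read 399.2 and 854.0. With only WT 3 and WT 6 kept in WT, the log2 difference was -0.31 in carcinoma and -0.26 in adenoma, and with spike-in signal as the covariate -0.50 and -0.43, none of them past the threshold. With the Gapdh covariate it was 1.63 in carcinoma and 1.76 in adenoma (limma adjusted p = 0.593 and 0.648). Cdca7 on WT 1, 2, 4 and 5 read 647.8, 1330.2, 537.3 and 452.0, and on WT 3 and WT 6 it read 1148.8 and 1438.0.

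Other Polycomb subunits were mixed. Of 15 tested, 1 was higher and 0 lower in carcinoma, and 2 were higher and 0 lower in adenoma, with medians of 0.03 and 0.19 on the log2 scale. Scmh1, which binds the repressive complex that holds Bmi1, was higher by 2.18 ± 0.54 in carcinoma (limma adjusted p = 0.0151) and by 1.84 ± 0.54 in adenoma (0.0426). Phc1, another subunit of that complex, was higher by 1.43 ± 0.39 in adenoma (limma adjusted p = 0.0278). Ezh2, the methyltransferase of the other main Polycomb complex, had log2 fold changes of 0.56 ± 0.23 in carcinoma and 0.57 ± 0.23 in adenoma that did not pass (limma adjusted p = 0.140 and 0.143).

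Aqp4, a water channel best known in glia and gastric parietal cells, was the member with lower signals in the tumours. Its brighter probe set had signals of 153.8, 49.3, 79.1, 61.0 and 206.3 on carcinoma arrays 1 to 5, and of 85.4, 89.6, 47.7, 8.8 and 73.1 on adenoma arrays 1 to 5. The lowest, median and highest WT signals were 64.9, 246 and 314.5. WT 2 and WT 5 were low among the WT arrays, and 2 of 5 arrays in each tumour group were below every WT array, so the groups overlapped. The log2 level averaged 6.56 ± 0.88 in carcinoma and 6.04 ± 0.45 in adenoma (SD, n = 5 each), against 7.52 ± 0.90 in WT (SD, n = 6). The log2 fold change was -1.48 ± 0.44 in adenoma, which passed (2.78-fold lower, limma adjusted p = 0.0426), and -0.96 ± 0.44 in carcinoma, which did not (limma adjusted p = 0.186).

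The second Aqp4 probe set was dimmer and gave no call. Its signals were 5.9, 13.9, 15.5, 13.2 and 42.8 on carcinoma arrays 1 to 5, and 23.1, 77.0, 10.3, 18.6 and 5.0 on adenoma arrays 1 to 5. On WT arrays the lowest, median and highest signals were 23.7, 74.6 and 199.4. It was above the floor on 0 of 5 carcinoma arrays, 1 of 5 adenoma arrays and 4 of 6 WT arrays, so its differences are bounds or close to them. Its log2 fold change was -0.85 ± 0.35 in carcinoma (limma adjusted p = 0.143) and -0.71 ± 0.35 in adenoma (limma adjusted p = 0.232). With the Gapdh covariate it was -0.38 in carcinoma and -0.19 in adenoma, and with the spike-in covariate -0.24 and -0.10.

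The adenoma call for Aqp4 was kept in 12 of 31 alternatives, and the direction in all of them. It was lost with quantile normalization (-1.07, limma adjusted p = 0.198), with array medians aligned (-1.16, 0.144) and in 10 of the 16 fits that left out an array. These were the fits without WT 1, 3, 4 or 6, without any one adenoma array, and without carcinoma 3, with log2 fold changes from -1.59 to -1.32 and adjusted p from 0.0517 to 0.104. With the Gapdh covariate it was -2.40 and not called (limma adjusted p = 0.173). In carcinoma that covariate gave -1.80 (limma adjusted p = 0.275), and Aqp4 passed with the mean of its probe sets (-0.90, limma adjusted p = 0.0362) and with array weights (-1.39, 0.0361).

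Markers of the other cell types that carry Aqp4 gave no call. The summed signal of 12 markers of neurons and glia ranged from 1463.3 to 2598.3 in carcinoma and from 1834.7 to 3620.9 in adenoma, against 2293.9 to 2719.6 in WT, with Snap25 and Ret at the floor in every group. Of the 8 tested, 0 passed in either comparison with WT, and their median log2 fold change was -0.36 in carcinoma and -0.59 in adenoma. The summed signal of 4 parietal cell markers ranged from 217.7 to 510.9 in carcinoma and from 295.6 to 772 in adenoma, against 453.4 to 981.4 in WT, with Atp4b, a subunit of the gastric proton pump, at the floor throughout. Only 3 of them were tested and 0 passed, with median log2 fold changes of -0.71 in carcinoma and -0.37 in adenoma. Among the other aquaporins 5 were tested and 0 passed, with a median of -0.24 in carcinoma and -0.27 in adenoma.

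Msi1 (Musashi-1), an RNA-binding protein that represses translation of Numb, lay close to the floor. Its signals were 25.4, 29.1, 123.8, 157.4 and 60.2 on carcinoma arrays 1 to 5, and 86.0, 34.2, 171.7, 141.1 and 27.4 on adenoma arrays 1 to 5. The lowest, median and highest WT signals were 26.7, 57.0 and 114.6. It was above the floor on 3 of 5 carcinoma arrays, 3 of 5 adenoma arrays and 5 of 6 WT arrays, and the groups overlapped throughout. The difference from WT was 0.24 ± 0.41 in carcinoma, with a 95% interval from -0.62 to 1.10 (limma adjusted p = 0.753), and 0.41 ± 0.41 in adenoma, with an interval from -0.45 to 1.26 (limma adjusted p = 0.578). With the Gapdh covariate the difference was larger, at 1.44 ± 0.58 in carcinoma and 1.73 ± 0.61 in adenoma, and did not pass (limma adjusted p = 0.315 and 0.304). Of 2 related genes tested, Numb and its fellow Musashi target Cdkn1a, 0 passed. Numb had log2 fold changes of -0.39 ± 0.34 in carcinoma and -0.57 ± 0.34 in adenoma (limma adjusted p = 0.514 and 0.328).

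**Figure D3:**
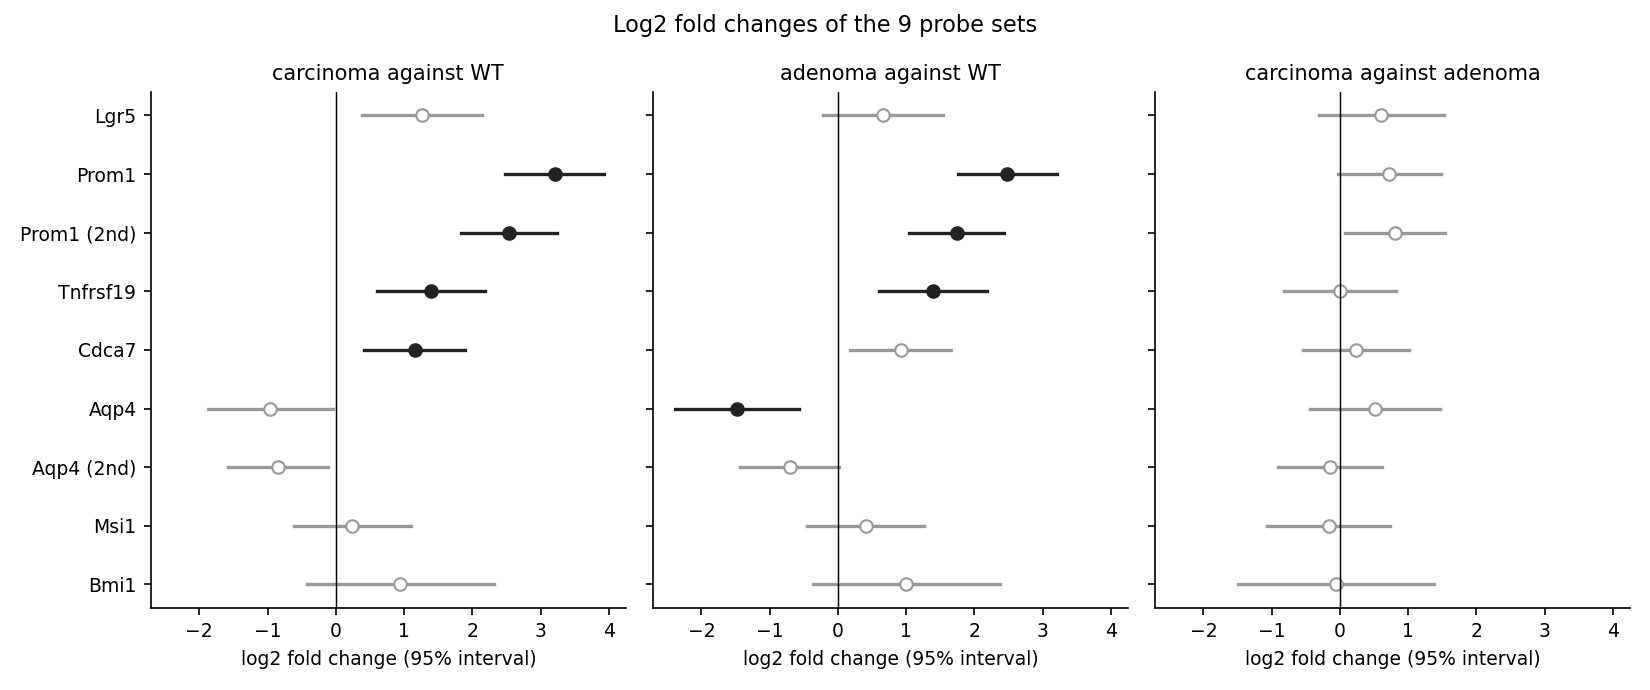
Log2 fold changes of the 9 probe sets, with the comparison in each panel's title, the group named first over the group named second. Points are limma estimates, lines 95% intervals, and filled points passed at an adjusted p of 0.05. The 2 Prom1 probe sets lie farthest to the right in both comparisons with WT, and no point is filled between carcinoma and adenoma.

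Between carcinoma and adenoma none of the 7 genes passed (limma adjusted p = 1 for each), beside 0.0268% of all genes tested, which is 2 of 7455. Over all genes, limma gave 185 with an unadjusted p under 0.05. The log2 difference was 0.72 ± 0.36 for Prom1 with a 95% interval from -0.03 to 1.48, and 0.80 ± 0.35 for its dimmer probe set with an interval from 0.07 to 1.54. For Lgr5 it was 0.61 ± 0.44 with an interval from -0.31 to 1.52, and for Aqp4 0.52 ± 0.45 with an interval from -0.44 to 1.47. These intervals leave room for differences of more than 2-fold. For Cdca7 the interval ran from -0.54 to 1.0, for Tnfrsf19 from -0.82 to 0.82, for Msi1 from -1.06 to 0.73 and for Bmi1 from -1.50 to 1.38.

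**Figure D4:**
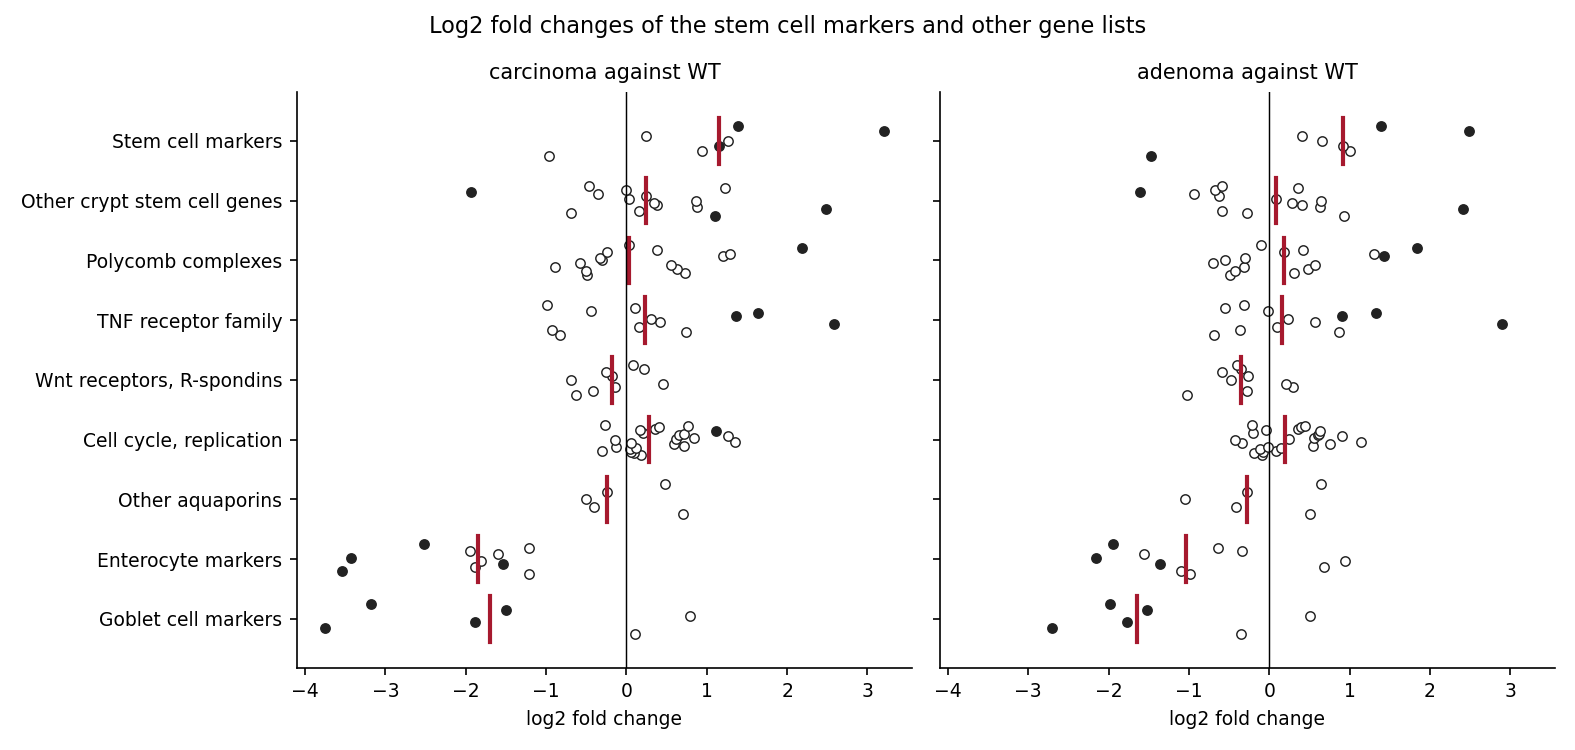
Log2 fold changes of the 7 stem cell markers and of 8 other gene lists, in carcinoma against WT (left) and adenoma against WT (right). Each point is a gene, filled where it passed at a limma adjusted p of 0.05, and red bars are list medians. The medians of the stem cell markers are 1.15 and 0.92, and those of the enterocyte markers are -1.85 and -1.04.

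Over the 16 arrays, the genes whose log2 levels followed each member most closely were named by Pearson's r, as a description of arrays that share group, amplification and scaling. For Prom1 they were Nek7 (0.97), Tmem45a (0.97) and Ggh (0.96), and for Tnfrsf19 Csnk1e (0.87), Spock2 (0.86) and Lama5 (0.86). For Cdca7 they were Cct7 (0.93), Hsp90aa1 (0.91) and Ran (0.91), and for Bmi1 Tlcd4 (0.95), Sec11a (0.93) and Chd1 (0.93). For Lgr5 they were Rgs19 (0.86), Clec16a (0.83) and Cd68 (0.83), and for Aqp4 Pigf (0.83), Lyve1 (0.83) and Fbxl5 (0.82). For Msi1 the closest were Serpinb9 (0.76), Foxk1 (0.69) and Reg2 (0.69). No member was among the closest genes of another.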

How the data were processed

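The authors deposited probe set intensities on a linear scale, with a value per array for 12488 probe sets of an Affymetrix MG_U74Av2 array, from laser-captured cells amplified in 2 rounds, per the labels' protocols. The sources used here do not name the software behind them. With 2% trimmed at each end, array means ran from 500.3 to 500.4, which was read as an earlier scaling, and no further normalization was applied. No 2 arrays held the same values, and there were 0 columns of other samples.

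Groups and replicate numbers came from the sample titles. Signals were floored at the 25th percentile (46.9, log2 5.55) and log2 was taken, which understates the change of genes near the floor. Symbols came from the platform annotation, updated through Entrez IDs (10839 probe sets matched to GRCm38.p6 names). One symbol each was available for 10833 probe sets, and the 66 control probe sets were dropped. The highest-mean probe set stood for a gene, and a gene needed a value above the floor on 5 or more of the 16 arrays. One model of the 3 groups was fitted in R 4.3.3 with limma 3.58.1 (functions lmFit and eBayes, with 13 residual degrees of freedom, two-sided), with Benjamini-Hochberg adjustment over all 7455 genes, and again over 10563 probe sets. The number of arrays limits the precision. The fit was tested on simulated data with independent noise on each array. Such data cannot show the effect of shared animals or of control measures that moved with the groups. For control measures, exact permutation tests were adjusted over the 3 pairs of groups.

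Named were all members with all probe sets, up to 4 genes per list and comparison that passed with the smallest p, and the 3 genes most like each member. Ezh2 and Numb, which did not pass, were added after their values were seen. The members, gene lists and alternatives were chosen with earlier results of these data known. The alternatives changed the scaling (quantile normalization or aligned medians), the floor (10th or 40th percentile), the filter (none, or 2 times the floor), the choice of probe set (the mean of all) and the model. Model alternatives were a replicate block, array weights, a robust variance trend, a fit restricted to a pair of groups, and covariates for the Gapdh ratio or the spike-ins. Further fits left out each array in turn, or the 4 WT arrays with the brightest spike-ins, alone or together with adenoma 4. Python 3.11.15 with matplotlib 3.10.9 drew the figures.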

Additional observations from a re-analysis of the deposited data

Results flagged for a closer look

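Among 36 groups of values, each of a probe set or of a control measure, examined for a single array far from the others, 1 value stood apart. Adenoma 2 had a signal of 77.0 for the dimmer Aqp4 probe set, while the other 4 adenoma arrays were below the floor and so held equal values there. About 1 in 20 groups would be picked out by chance, but that rate does not hold here. Where all other arrays are tied at the floor, any single array above it is picked out. The same array had the highest adenoma signal, 89.6, for the brighter Aqp4 probe set.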

How the results depend on the processing

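The number of the 7 genes called in carcinoma against WT was 3, and 1 with the Gapdh or the spike-in covariate, with 1 to 3 when an array was left out (1 without carcinoma 1). It was 4 with medians aligned, the mean of the probe sets, array weights or the replicate block. In adenoma against WT it was 3, and 1 with the floor at the 40th percentile, with the Gapdh covariate or without adenoma 4 and the 4 WT arrays with the brightest spike-ins, with 1 to 3 when an array was left out (1 without adenoma 2, 3 or 5). It was 4 with the replicate block. Of the 9 probe sets 4 were called in carcinoma, and 2 with either covariate and without those 4 WT arrays, with or without adenoma 4, with 2 to 4 when an array was left out. In adenoma 4 were called, 2 with the floor at the 40th percentile, the spike-in covariate and without those WT arrays, with or without adenoma 4, and 1 with the Gapdh covariate, with 2 to 4 when an array was left out. Between carcinoma and adenoma the count was 0 in every alternative.

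No difference that changed direction passed in the fit that turned it. Bmi1 turned to -0.50 in carcinoma and -0.43 in adenoma with the spike-in covariate, to -0.31 and -0.26 without the 4 WT arrays, and to -0.31 and -0.10 when adenoma 4 was also left out. Between carcinoma and adenoma Bmi1 turned to 0.10 with array weights (0.070 in the fit of all probe sets), and ran from -0.36 to 0.31 when an array was left out. Msi1 turned to 0.015 there without the 4 WT arrays and adenoma 4, and ran from -0.43 to 0.086 when an array was left out and from -0.020 to 0.42 in carcinoma against WT. Tnfrsf19, at -0.00043 between carcinoma and adenoma, turned to 0.042 with quantile normalization, 0.026 with medians aligned, 0.057 with the floor at the 40th percentile, 0.076 with the Gapdh covariate and 0.000122 with the spike-in covariate, and ran from -0.35 to 0.24 when an array was left out. The causes were not tested.

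Over all genes, 675 were called in carcinoma against WT, but 100 with the Gapdh covariate, 382 with the spike-in covariate, 209 without the 4 WT arrays and 243 without adenoma 4 as well. In adenoma against WT 617 were called, but 70, 398, 181 and 171 in those fits and 384 without adenoma 5. Between carcinoma and adenoma 2 were called, and 0 to 18 over the alternatives. The share of calls that were higher in carcinoma was 45.9% as deposited, 58.9% with quantile normalization and 73.7% with medians aligned, and all genes together had median log2 fold changes of -0.14, -0.0056 and 0.15. In adenoma these were 48.6%, 62.8% and 75.9%, and -0.14, -0.02 and 0.12.

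Whether same-numbered arrays were paired is not in the labels. Same-numbered arrays correlated in their deviations from group means by -0.27 to 0.40, and 3 of 16 arrays were most like an array of their own number. Over all genes, the fit with the replicate number as a block called 842 in carcinoma and 728 in adenoma, against 675 and 617 without it. With the replicate number as a block, Bmi1 passed at 1.30 in carcinoma (limma adjusted p = 0.0378) and 1.36 in adenoma (0.0347), Cdca7 passed at 1.07 in adenoma (0.0209), and Aqp4 in adenoma was -1.32 (0.0718). WT 6 has no same-numbered tumour array, so these differences equal those of the fit that left it out. In that fit Bmi1 did not pass (limma adjusted p = 0.200 in carcinoma and 0.188 in adenoma). Signals near the floor limit what can be said of Tnfrsf19, Msi1 and the dimmer Aqp4 probe set.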

Other observations

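Within groups, as deviations from the group means over the 16 arrays, the members did not vary together as a set. Cdca7 and Bmi1 had the highest Pearson's r of the pairs, 0.71, while Lgr5 ran against both, at -0.64 with Cdca7 and -0.59 with Bmi1. Aqp4 and Msi1 had an r of -0.61. Prom1 and Tnfrsf19, which were both higher in the tumours and had an r of 0.67 over all arrays, had an r of -0.10 within groups. Tnfrsf19 was set to the floor on every WT array and could not vary there, which makes its r within groups smaller in size. Msi1 was also at the floor on some arrays of each group. These values describe arrays that share amplification and scaling, and carry no test.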
